A study of Mus musculus with 6 samples.

Results

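The immediate-early and serum response genes are genes whose transcripts cells can raise quickly after a growth factor, serum or stress signal. The 40 members were chosen by symbol, and each was read by the probe set that was brightest on average across the 6 arrays, out of 18193 mouse genes that had a probe set with a single gene symbol. All 40 had such a probe set, and all 40 passed the filter on low signals that left 12408 genes to test. The mean over the arrays chose the probe set, and the list was drawn up with earlier results of these data known, so the counts over the members are a description.

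Transcript levels were measured on Affymetrix Mouse Genome GeneChip arrays in primary mouse myoblasts, the muscle precursor cells that divide in culture and can fuse into muscle fibres. The 3 LncMyoD shRNA arrays came from cells infected with a lentivirus made from the vector Tet-pLKO-puro encoding a short hairpin RNA (shRNA) directed at the long non-coding RNA LncMyoD. The 3 control arrays came from control myoblasts, and the labels do not say what virus or hairpin these received. All samples share a stated age of 21 days, and no genotype or strain is given. The labels describe a growth medium with fetal bovine serum and basic fibroblast growth factor and a differentiation medium with horse serum, but not which of them the harvested cells were in, nor whether an inducer of the Tet-controlled vector was given. The replicates are called biological, but separate animals or cultures are nowhere stated, so the p-values reflect array-to-array spread that may be only technical. A bulk array cannot tell fewer cells of a type apart from less RNA per cell. LncMyoD itself is not analysed here, so the loss of the targeted RNA was not checked.

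Immediate-early genes are induced without new protein synthesis, because the factors that switch them on are already present. In the textbook account, ERK kinases phosphorylate ternary complex factors that sit with serum response factor (SRF) on CArG boxes, and cyclic AMP or calcium signals phosphorylate CREB on cyclic AMP response elements. Many of the products are transcription factors, such as FOS and JUN, which pair into the AP-1 complex, while others are phosphatases, RNA decay factors and inhibitors that shut the response off again. In muscle precursor cells this class of genes is known for its response to serum, injury and cell isolation.

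The promoter windows that follow are shown because Nr4a1, Nr4a3, Fos and Fosb had the largest increases of the members, while Rhob was lower and Srf did not pass the test. Nr4a2, with a smaller log2 increase of 0.90, is printed only as the remaining NR4A gene. Each sequence is the RefSeq window of assembly GRCm38.p6 from 250 bases before to 50 after the gene start, printed 5′ to 3′ on the gene's strand. Capitals mark the core of the cyclic AMP response element, TGACG or its reverse complement, and CArG boxes.
Nr4a1, chr15:101266596-101266895, plus strand: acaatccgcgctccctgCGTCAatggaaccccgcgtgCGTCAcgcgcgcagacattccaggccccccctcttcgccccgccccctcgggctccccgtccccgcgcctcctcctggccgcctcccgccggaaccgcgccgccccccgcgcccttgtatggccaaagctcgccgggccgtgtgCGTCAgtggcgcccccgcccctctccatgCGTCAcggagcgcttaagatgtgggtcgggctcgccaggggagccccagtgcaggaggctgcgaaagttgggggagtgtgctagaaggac
Nr4a2, chr2:57123954-57124253, minus strand: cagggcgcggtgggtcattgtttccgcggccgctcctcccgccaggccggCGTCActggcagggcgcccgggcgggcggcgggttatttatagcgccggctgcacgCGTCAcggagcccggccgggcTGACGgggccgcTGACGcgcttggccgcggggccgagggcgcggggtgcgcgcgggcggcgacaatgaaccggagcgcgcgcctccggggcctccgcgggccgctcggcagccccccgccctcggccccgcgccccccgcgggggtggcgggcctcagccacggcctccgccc
Nr4a3, chr4:48045055-48045354, plus strand: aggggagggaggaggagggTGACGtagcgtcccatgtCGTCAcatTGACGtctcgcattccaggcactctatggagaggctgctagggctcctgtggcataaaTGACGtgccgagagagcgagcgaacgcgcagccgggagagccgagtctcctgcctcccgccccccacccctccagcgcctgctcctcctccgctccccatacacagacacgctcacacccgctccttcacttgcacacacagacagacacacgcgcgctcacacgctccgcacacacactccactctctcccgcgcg
Fos, chr12:85473640-85473939, plus strand: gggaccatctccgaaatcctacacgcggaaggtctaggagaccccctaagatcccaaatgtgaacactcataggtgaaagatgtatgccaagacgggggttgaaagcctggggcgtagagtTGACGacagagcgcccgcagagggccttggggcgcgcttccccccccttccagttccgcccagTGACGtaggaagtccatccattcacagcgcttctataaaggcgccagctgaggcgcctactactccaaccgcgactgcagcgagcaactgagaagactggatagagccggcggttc
Fosb, chr7:19309996-19310295, minus strand: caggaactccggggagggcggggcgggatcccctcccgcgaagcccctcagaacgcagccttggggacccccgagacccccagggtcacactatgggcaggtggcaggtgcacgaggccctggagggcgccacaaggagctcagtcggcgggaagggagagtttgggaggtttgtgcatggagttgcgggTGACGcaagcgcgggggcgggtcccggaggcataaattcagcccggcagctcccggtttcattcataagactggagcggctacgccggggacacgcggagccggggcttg
Rhob, chr12:8499960-8500259, minus strand: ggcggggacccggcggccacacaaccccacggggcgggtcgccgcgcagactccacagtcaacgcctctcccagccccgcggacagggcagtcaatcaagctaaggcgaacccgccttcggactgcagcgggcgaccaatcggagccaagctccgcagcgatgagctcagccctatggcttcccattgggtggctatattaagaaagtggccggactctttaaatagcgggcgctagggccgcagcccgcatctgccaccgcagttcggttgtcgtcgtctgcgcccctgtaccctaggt
Srf, chr17:46556113-46556412, minus strand: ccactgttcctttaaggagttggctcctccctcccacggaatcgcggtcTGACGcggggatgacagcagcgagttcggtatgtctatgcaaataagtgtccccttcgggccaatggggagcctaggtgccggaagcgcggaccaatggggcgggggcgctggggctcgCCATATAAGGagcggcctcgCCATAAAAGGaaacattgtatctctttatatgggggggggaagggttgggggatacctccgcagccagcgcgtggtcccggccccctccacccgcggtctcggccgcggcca
The windows of Nr4a1, Nr4a2 and Nr4a3 each held 4 core motifs. Fos held 2 and Fosb 1, Rhob held neither motif, and Srf held 1 core motif and 2 CArG boxes, at positions -82 to -73 and -62 to -53 from its start.

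Of the 40 members, 24 were higher in LncMyoD shRNA myoblasts and 5 were lower (limma, Benjamini-Hochberg adjusted p under 0.05 over all 27022 probe sets tested), and 11 did not pass. The share of members called higher was 60%, beside 35.7% of all tested genes, and the share called lower was 12.5%, beside 22.8%. The counts by family given below stand beside the same 35.7% and 22.8%. At least 2-fold increases past the threshold were found for 6 members (15%), namely Nr4a1, Nr4a3, Fosb, Fos, Fosl1 and Ier2, beside 2.15% of all tested genes. Fosl1 and Dusp2, both among the 24 called higher, had control means below the filter level of 6.50 and passed it through their shRNA arrays. The shares above include them, and nothing is read from their part. No member was called at least 2-fold lower. The median difference over the members was 0.27 on the log2 scale, beside 0.045 over all tested genes, and the median size of the difference regardless of sign was 0.41, beside 0.21. The arrays of the groups did not overlap for 28 members (70%), 23 with the shRNA arrays above and 5 with them below, a share near the 64.7% of all tested genes. With every array shifted to a common median of tested probe sets, all tested genes split into 3619 higher and 3670 lower, beside 4425 higher and 2828 lower as deposited.

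**Figure D1:**
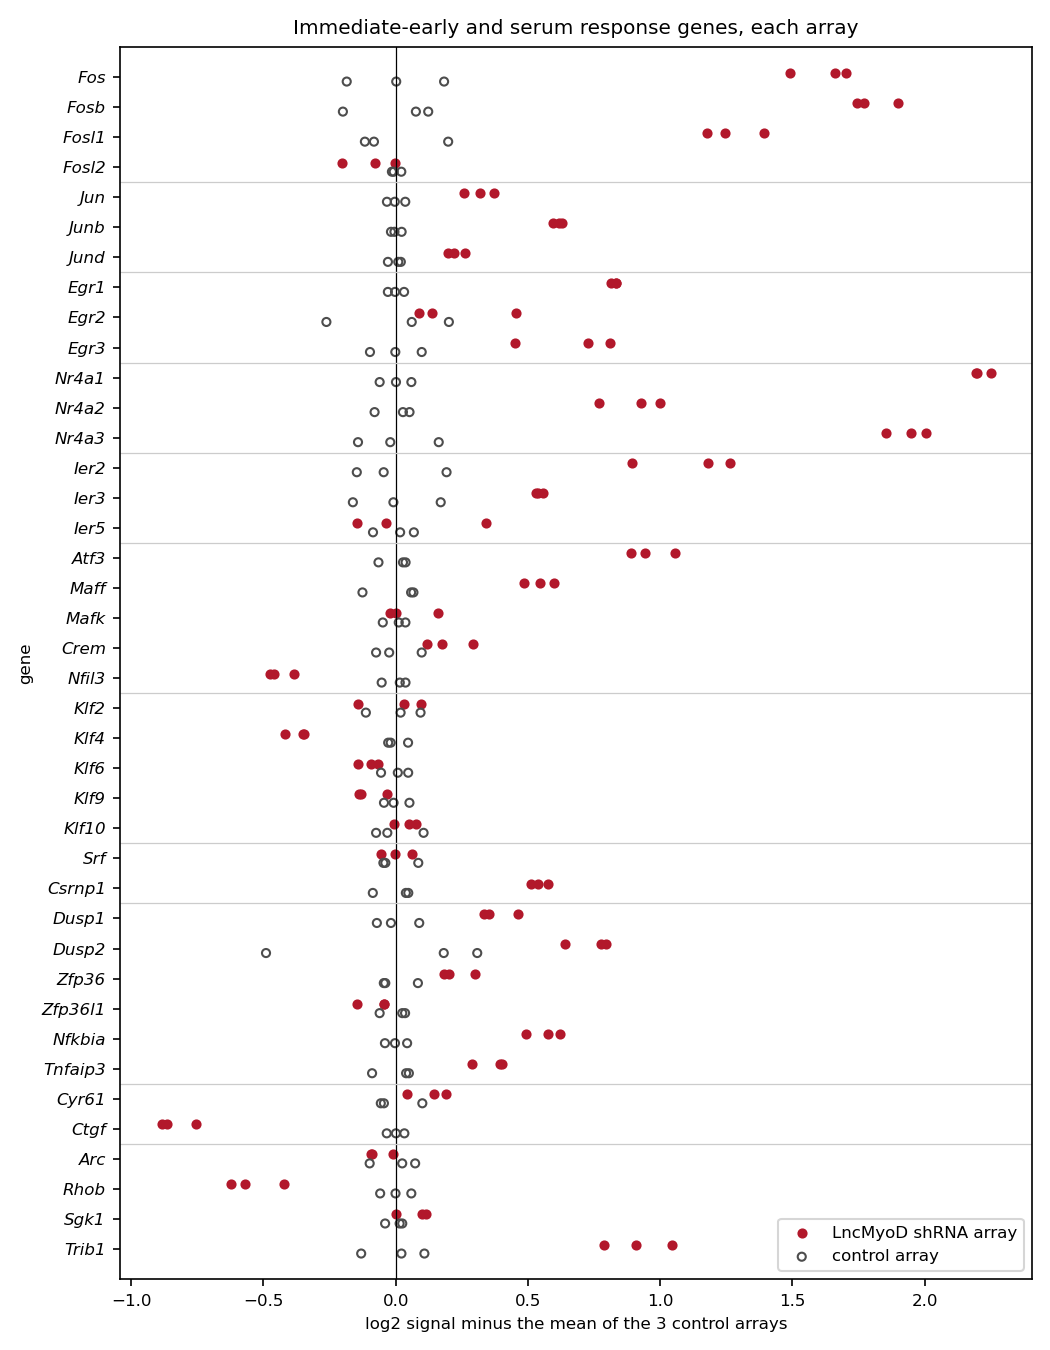
Log2 signal minus the mean of the 3 control arrays (horizontal axis) for each of the 40 members (vertical axis, grouped by role). Filled points are the 3 LncMyoD shRNA arrays and open circles, just under them, the 3 control arrays; the shRNA arrays of 23 members lie wholly to the right of the controls, those of 5 wholly to the left, and those of 12 overlap.

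The NR4A orphan nuclear receptors, which bind DNA without a known hormone, included the largest increase of the 40 members. Nr4a1 read 10.29, 10.23 and 10.24 in the shRNA arrays, against 8.10, 8.04 and 7.98 in the control arrays, on the log2 scale used for all array values here. Its shRNA arrays lay far above all control arrays, and the difference was 2.21 (SE 0.0685, limma adjusted p = 1.5e-10), or 4.64-fold. Nr4a3 read 10.78, 10.84 and 10.68 in the shRNA arrays, against 8.81, 8.69 and 8.99 in the control arrays. The groups stood apart by 1.94 (SE 0.0785, limma adjusted p = 1.53e-09), or 3.83-fold. Nr4a2 read 9.27, 9.43 and 9.50 in the shRNA arrays, against 8.53, 8.42 and 8.56 in the control arrays. It was 1.86-fold higher (difference 0.90, SE 0.0815, limma adjusted p = 1.16e-06), with no overlap. A second probe set of Nr4a3, which averaged 8.90 ± 0.083 in shRNA arrays and 8.95 ± 0.24 in control arrays (SD, n = 3 each), did not show the increase (difference -0.048, 95% interval -0.28 to 0.19, limma adjusted p = 0.738). Of the other probe sets of Nr4a2 that were tested, 2 were also higher, by 0.71 and 0.80, and 1 was not past the threshold at -0.19.

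The Fos proteins are the AP-1 subunits that need a Jun partner to bind DNA, and 3 of the 4 rose. Fos read 10.78, 10.73 and 10.56 in the shRNA arrays, against 9.26, 8.89 and 9.08 in the control arrays. All shRNA arrays were above all control arrays, by 1.62 on average (SE 0.0885, limma adjusted p = 1.39e-08), or 3.07-fold. Fosb read 8.49, 8.47 and 8.62 in the shRNA arrays, against 6.80, 6.52 and 6.85 in the control arrays. That was a 3.49-fold increase (difference 1.80, SE 0.111, limma adjusted p = 3.74e-08), again without overlap. Fosl1, which encodes FRA1, read 7.60, 7.45 and 7.38 in the shRNA arrays, against 6.40, 6.12 and 6.09 in the control arrays. It was 2.41-fold higher (difference 1.27, SE 0.126, limma adjusted p = 2.58e-06), and its control mean lay below the filter level of 6.50. Fosl2, which encodes FRA2, read 11.59, 11.71 and 11.79 in the shRNA arrays, against 11.78, 11.81 and 11.78 in the control arrays. Its arrays overlapped, and the difference of -0.094 had a 95% interval of -0.20 to 0.015 (limma adjusted p = 0.135). A dimmer Fosl2 probe set was higher by 0.35 (limma adjusted p = 0.005). Without shRNA replicate 3, Fosl2 as first read was lower by 0.14 (limma adjusted p = 0.0345).

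The Jun proteins, which can pair with each other or with Fos proteins, were all higher by smaller amounts. Junb read 10.36, 10.34 and 10.37 in the shRNA arrays, against 9.77, 9.74 and 9.73 in the control arrays (difference 0.61, SE 0.0528, limma adjusted p = 7.33e-07). The shRNA arrays lay above the controls in every case. Jun read 13.71, 13.77 and 13.83 in the shRNA arrays, against 13.49, 13.42 and 13.45 in the control arrays (difference 0.32, SE 0.0374, limma adjusted p = 1.26e-05), and a second probe set was higher by 0.68. Jund, often described as the Jun gene with steady expression, read 13.23, 13.25 and 13.29 in the shRNA arrays, against 13.05, 13.00 and 13.04 in the control arrays. Its difference of 0.23 was the smallest of the Jun genes (SE 0.0346, limma adjusted p = 0.000109), and the groups did not overlap.

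**Figure D2:**
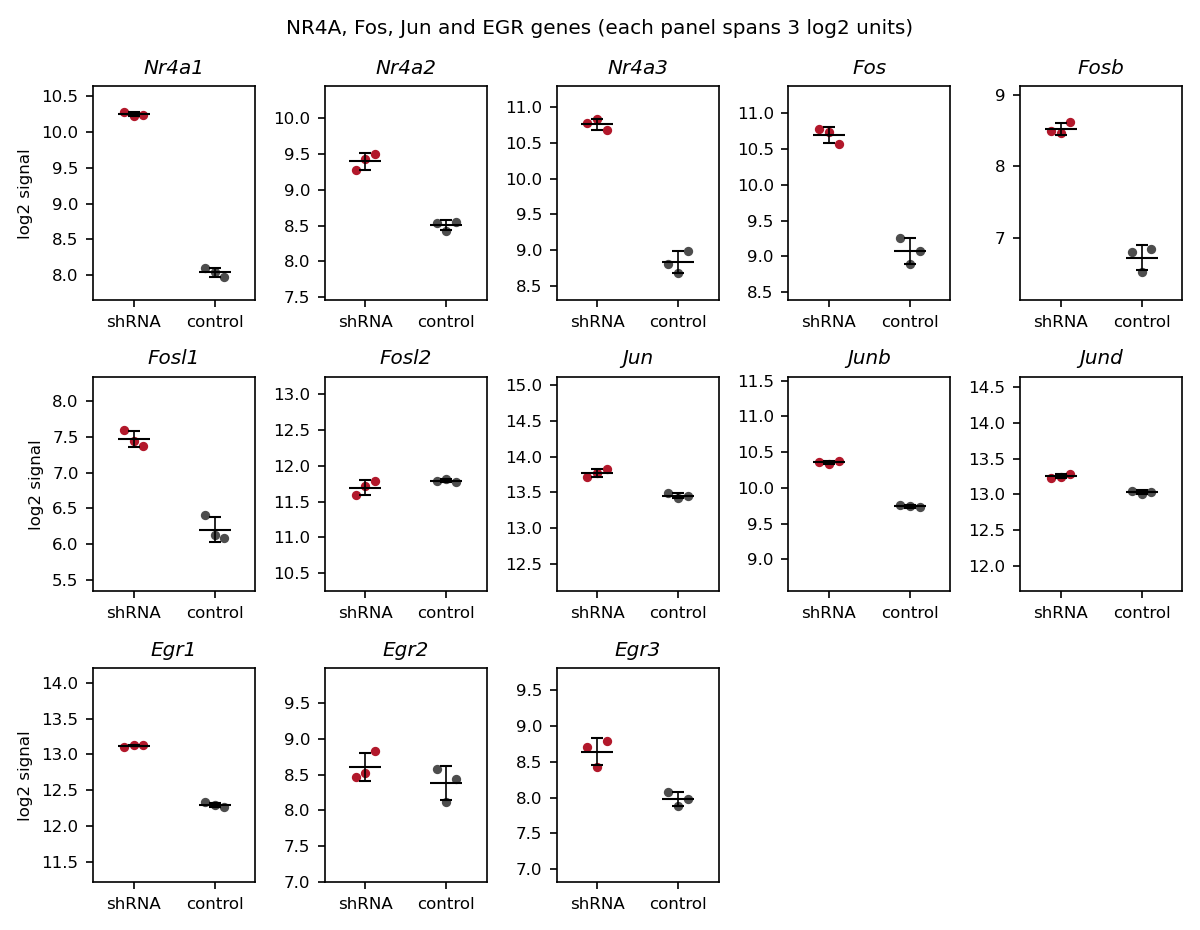
Log2 signal of the NR4A, Fos, Jun and EGR genes, with 1 panel per gene and LncMyoD shRNA left of control. Points are arrays (n = 3 per group), bars the mean ± SD, and every panel spans 3 log2 units; the groups lie apart in all panels but those of Fosl2 and Egr2.

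The EGR zinc finger factors are classic targets of ERK signalling. Egr1 read 13.11, 13.13 and 13.13 in the shRNA arrays, against 12.33, 12.29 and 12.27 in the control arrays. Its replicates were tight and far apart between the groups, a 1.77-fold increase (difference 0.83, SE 0.0349, limma adjusted p = 2.08e-09). Egr3 read 8.71, 8.43 and 8.79 in the shRNA arrays, against 8.08, 7.89 and 7.98 in the control arrays (difference 0.66, SE 0.105, limma adjusted p = 0.000153). A dimmer Egr3 probe set differed by -0.17 and did not pass (limma adjusted p = 0.267), and with the probe sets of each gene averaged Egr3 no longer passed (difference 0.24, limma adjusted p = 0.0573). Egr2 read 8.47, 8.52 and 8.84 in the shRNA arrays, against 8.58, 8.12 and 8.44 in the control arrays. Control replicate 1 lay inside the shRNA range, and the difference of 0.23 (95% interval -0.045 to 0.50, limma adjusted p = 0.147) passed the test without it (0.33, limma adjusted p = 0.0404).

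The IER genes are named for their immediate-early response and are not 1 protein family. Ier2, a small nuclear protein gene, read 7.70, 7.79 and 7.42 in the shRNA arrays, against 6.72, 6.48 and 6.38 in the control arrays. It was 2.16-fold higher (difference 1.11, SE 0.133, limma adjusted p = 1.32e-05). Ier3, linked to cell survival, read 9.04, 9.07 and 9.05 in the shRNA arrays, against 8.68, 8.50 and 8.35 in the control arrays (difference 0.54, SE 0.0893, limma adjusted p = 0.000216). Neither gene had overlapping arrays. Ier5 read 10.52, 10.41 and 10.90 in the shRNA arrays, against 10.62, 10.57 and 10.47 in the control arrays, which overlapped (difference 0.054, 95% interval -0.16 to 0.27, limma adjusted p = 0.673). A dimmer Ier5 probe set was higher by 0.59 (limma adjusted p = 0.000263).

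The other bZIP factors share the leucine zipper of the Fos and Jun proteins, and 3 of the 5 were higher and 1 lower. Atf3, a stress-induced factor that can repress its targets, read 8.62, 8.73 and 8.56 in the shRNA arrays, against 7.70, 7.71 and 7.61 in the control arrays. It was 1.95-fold higher (difference 0.96, SE 0.0888, limma adjusted p = 1.34e-06). Maff, a small MAF protein without an activation domain, read 8.99, 8.93 and 8.87 in the shRNA arrays, against 8.45, 8.26 and 8.44 in the control arrays (difference 0.54, SE 0.0833, limma adjusted p = 0.000117). Its relative Mafk differed by 0.046 (95% interval -0.065 to 0.16, limma adjusted p = 0.476), with overlapping arrays. Nfil3, a repressor that binds sites of the circadian PAR bZIP factors, read 10.91, 10.99 and 10.89 in the shRNA arrays, against 11.38, 11.41 and 11.32 in the control arrays. It was lower in every shRNA array (difference -0.44, SE 0.0469, limma adjusted p = 5.11e-06). Crem, which encodes activators and the cyclic AMP early repressor from 1 locus, read 10.77, 10.89 and 10.71 in the shRNA arrays, against 10.69, 10.57 and 10.52 in the control arrays (difference 0.20, SE 0.0607, limma adjusted p = 0.0155). A dimmer Crem probe set was lower by 0.59 (limma adjusted p = 0.000408), so the direction for Crem rested on the probe set. The Crem call was lost without shRNA replicate 2 (0.15, limma adjusted p = 0.0840) and without control replicate 3 (0.16, limma adjusted p = 0.0648).

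The Krüppel-like factors (KLF) bind GC-rich and CACCC sequences, and none of the 5 was called higher by limma, even at an unadjusted p under 0.05. Klf4, also known from reprogramming to pluripotency, read 10.80, 10.87 and 10.87 in the shRNA arrays, against 11.19, 11.20 and 11.26 in the control arrays. It was lower without overlap (difference -0.37, SE 0.0462, limma adjusted p = 1.92e-05), and its second probe set was lower by 0.57. Klf6 read 12.61, 12.68 and 12.66 in the shRNA arrays, against 12.80, 12.69 and 12.76 in the control arrays. This was a difference of -0.10 with a limma adjusted p of 0.0444. Of its other 4 probe sets, 3 were also called lower. The Klf6 call was lost without shRNA replicate 1 (-0.080), 2 (-0.12) or 3 (-0.11) and without control replicate 1 (-0.078) or 3 (-0.098), with limma adjusted p between 0.0582 and 0.147. Klf2, a gene of quiescent endothelial and immune cells, differed by -0.0047 (95% interval -0.21 to 0.20, limma adjusted p = 0.972). Klf9, a glucocorticoid target, differed by -0.10 (95% interval -0.22 to 0.022, limma adjusted p = 0.155). Klf10, induced by TGF-beta, differed by 0.040 (95% interval -0.061 to 0.14, limma adjusted p = 0.498). The arrays of these 3 genes overlapped between the groups.

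SRF is the factor on which the serum response of many of these genes rests. Srf read 12.07, 12.12 and 12.19 in the shRNA arrays, against 12.21, 12.09 and 12.08 in the control arrays. The arrays were interleaved, and the difference was 0.0024 (95% interval -0.099 to 0.10, limma adjusted p = 0.971). A dimmer Srf probe set averaged 8.80 ± 0.096 in shRNA arrays and 9.10 ± 0.14 in control arrays (SD, n = 3 each) and was called lower by 0.29 (limma adjusted p = 0.0131). Csrnp1, which encodes a nuclear protein induced by axin and growth factors, read 11.43, 11.46 and 11.40 in the shRNA arrays, against 10.94, 10.93 and 10.80 in the control arrays (difference 0.54, SE 0.0492, limma adjusted p = 1.15e-06).

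The genes that shut the response off were higher in 5 of 6 cases. Dusp1, a phosphatase that inactivates MAP kinases, read 13.06, 13.08 and 13.19 in the shRNA arrays, against 12.82, 12.71 and 12.66 in the control arrays (difference 0.38, SE 0.0477, limma adjusted p = 1.93e-05). Dusp2, a nuclear MAP kinase phosphatase, read 7.12, 7.14 and 6.98 in the shRNA arrays, against 6.65, 5.85 and 6.53 in the control arrays. Control replicate 2 was low and the SE was the widest of the members at 0.179 (difference 0.74, limma adjusted p = 0.00372), and the control mean lay below the filter level. Nfkbia, the inhibitor that holds NF-kappaB in the cytoplasm, read 12.46, 12.54 and 12.59 in the shRNA arrays, against 12.01, 11.96 and 11.92 in the control arrays. It was higher by 0.56 (SE 0.0432, limma adjusted p = 2.58e-07), and its other 4 probe sets were higher by 0.57 to 0.73. Tnfaip3, the ubiquitin-editing enzyme A20 that limits NF-kappaB signalling, read 11.65, 11.75 and 11.76 in the shRNA arrays, against 11.40, 11.41 and 11.27 in the control arrays (difference 0.36, SE 0.0508, limma adjusted p = 5.58e-05). Zfp36, which encodes tristetraprolin and promotes decay of mRNAs with AU-rich elements, read 10.16, 10.25 and 10.13 in the shRNA arrays, against 10.04, 9.91 and 9.91 in the control arrays (difference 0.23, SE 0.0606, limma adjusted p = 0.00632). None of these 5 genes had overlapping arrays. Its relative Zfp36l1 differed by -0.079 (95% interval -0.17 to 0.0087, limma adjusted p = 0.119), with overlap.

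The secreted and cytoplasmic members moved in both directions. Ctgf, a matricellular protein gene and a standard target of YAP and TEAD, read 11.55, 11.57 and 11.67 in the shRNA arrays, against 12.46, 12.40 and 12.43 in the control arrays. It had the largest decrease of the 40 members, at -0.83 (SE 0.0439, limma adjusted p = 1.01e-08), and the level in control was 1.78-fold that in shRNA. Cyr61, of the same CCN family, read 13.08, 13.18 and 13.23 in the shRNA arrays, against 13.14, 12.98 and 12.99 in the control arrays. The arrays overlapped (difference 0.13, SE 0.0493, limma adjusted p = 0.047), and 2 dimmer Cyr61 probe sets were each called lower by 0.22. The Cyr61 call was lost without shRNA replicate 2 (0.12) or 3 (0.093) and without control replicate 2 (0.097) or 3 (0.10), with limma adjusted p between 0.128 and 0.169.

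Rhob, an endosomal small GTPase, read 12.60, 12.65 and 12.80 in the shRNA arrays, against 13.28, 13.16 and 13.22 in the control arrays. Every shRNA array was below every control array (difference -0.54, SE 0.0503, limma adjusted p = 1.53e-06). Trib1, a pseudokinase that directs C/EBP proteins to degradation, read 10.38, 10.51 and 10.26 in the shRNA arrays, against 9.58, 9.49 and 9.34 in the control arrays. It was 1.88-fold higher (difference 0.91, SE 0.0785, limma adjusted p = 7.31e-07). Sgk1, a kinase gene induced by serum and glucocorticoids, differed by 0.073 (95% interval -0.012 to 0.16, limma adjusted p = 0.135) and passed without shRNA replicate 1 (0.11, limma adjusted p = 0.0311) and with quantile normalization (0.083, limma adjusted p = 0.0174). Arc, known from synaptic activity in neurons, averaged 6.88 ± 0.047 in shRNA arrays and 6.95 ± 0.089 in control arrays (SD, n = 3 each), not far above the filter level. Its difference was -0.064 (95% interval -0.30 to 0.17, limma adjusted p = 0.653).

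**Figure D3:**
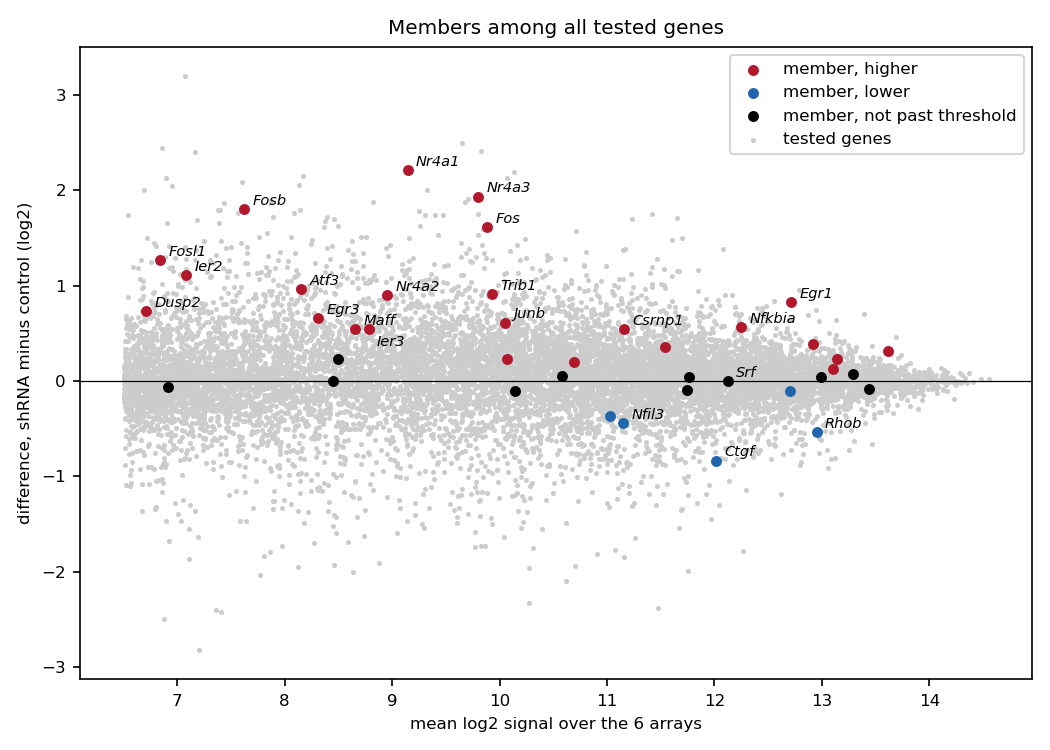
Difference in log2 signal, LncMyoD shRNA minus control, against the mean log2 signal over the 6 arrays, for the 12408 tested genes (grey) and the 40 members (red higher, blue lower, black not past the threshold). The 6 members with at least 2-fold increases have mean signals below 10, and Ctgf is the member with the lowest difference.

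The size of the members' differences varied with the brightness of their probe sets, which is not a level that can be set between genes. Of the 11 members with a mean signal from 8 to 10, 9 were higher and 0 lower, with a median size of 0.90. Of the 5 members below 8, 4 were higher and 0 lower, with a median size of 1.11. Of all tested genes, 21.4% were higher and 15.6% lower below 8, and 42.2% higher and 21.6% lower from 8 to 10, with median sizes of 0.22 and 0.28. The band below 8 holds Fosl1 and Dusp2, whose control means lay under the filter level, so that they passed it through their shRNA arrays and nothing is read from this band's counts and sizes. Of the 24 members at 10 or above, 11 were higher and 5 lower. From 10 to 12, 5 of 11 members were higher and 2 lower, beside 43.6% higher and 26.8% lower of all tested genes. The share called higher in this band lay near that of all genes. From 12 upwards, 6 of 13 members were higher and 3 lower, beside 30.6% higher and 25.3% lower of all tested genes. From 10 to 12 the median size was 0.23 for the members and 0.23 for all tested genes, and from 12 upwards it was 0.23 and 0.12.

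The members that had more than 1 probe set numbered 20, with 41 further probe sets. Of these, 31 passed the filter, and 9 were called higher and 8 lower, while 14 did not pass. Over all probe sets tested, 30.4% were called higher and 23.5% lower. A second probe set was called in the opposite direction for 2 called members, Crem and Cyr61. For 8 called members another tested probe set was not called, among them Nr4a3 and Egr3. Probe sets of 1 gene can read different transcript ends or isoforms, which was not tested here.

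**Figure D4:**
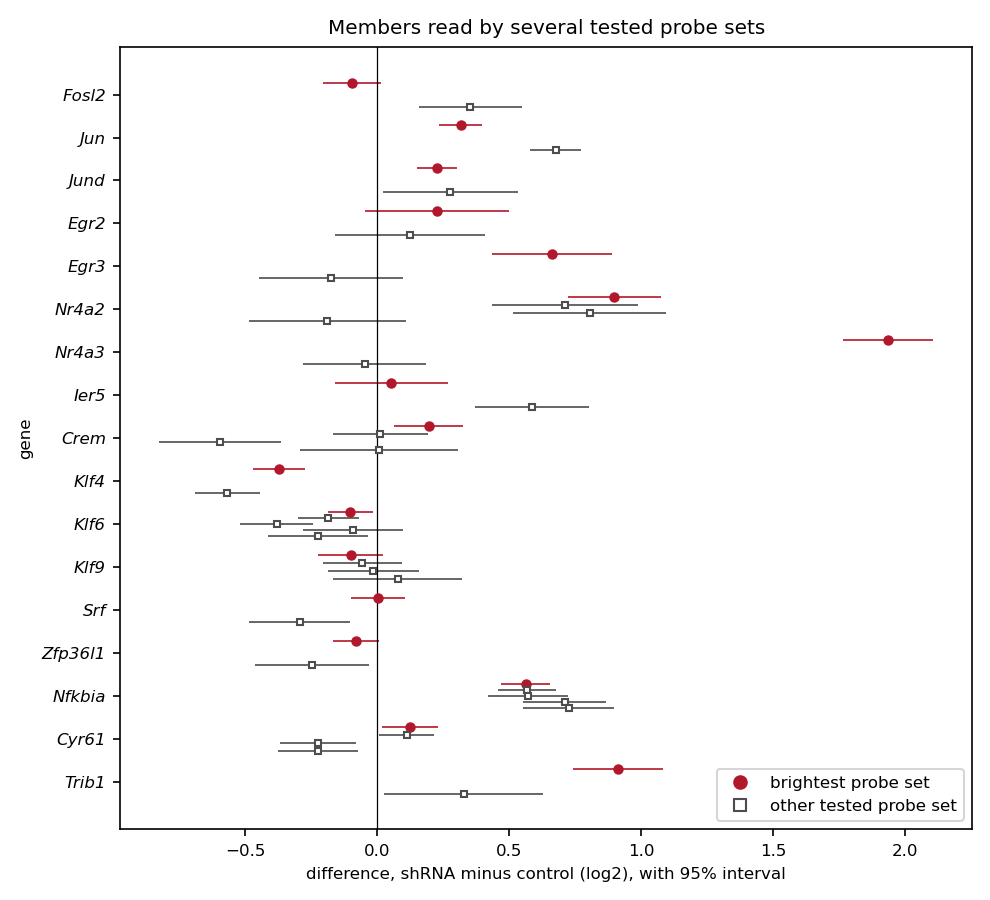
Difference in log2 signal, LncMyoD shRNA minus control (horizontal axis), for each tested probe set of the members read by several, with unadjusted 95% intervals from limma (n = 3 arrays per group). Filled points are the brightest probe set and open squares the others; the 5 probe sets of Nfkbia lie together, while those of Nr4a3, Crem and Cyr61 lie on both sides of 0.

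RefSeq promoter windows were found for 31 of the 40 members. The core TGACG, on either strand, was in a window of 21 of these 31 members, beside 23.0% of the 27025 genes in the promoter table. It was there in 13 of 18 members called higher, 2 of 4 called lower and 6 of 9 not past the threshold. At least 4 core motifs in 1 window were found in 3 members, the NR4A genes printed above, beside 0.255% of all genes. This cutoff equals the number that these 3 genes held and was not planned, so the contrast is only a description. The full element TGACGTCA, which contains the core, was found in Dusp1 and Maff, or 2 of 31 members beside 2.03% of genes. A CArG box was in windows of Srf, Egr2 and Zfp36, beside 1.81% of genes. The EGR motif GCGNGGGCG was in 12 of 31 members beside 6.27% of genes, the NF-kappaB motif in 9 of 31 beside 9.55%, the AP-1 motif TGANTCA in 4 of 31 beside 8.97%, and the NR4A motif AAAGGTCA in 0 of 31 beside 1.70%. All motifs were searched on both strands. The member windows had a median GC content of 61.2%, against 52.7% for all windows, and its part in the motif shares was not tested. A letter match is not a binding site, and elements farther from the start are outside these windows.

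The genes around the members in the same pathways were taken from 13 lists. Their counts stand beside 35.7% of all tested genes called higher and 22.8% called lower. Among upstream ERK genes and ternary complex factors, 4 of 14 tested were higher and 4 lower. Fgfr1, a receptor for basic fibroblast growth factor, was higher by 0.78 (limma adjusted p = 5.65e-08), and Rps6ka5, a kinase of CREB and histone H3, was lower by 0.45 (limma adjusted p = 5.41e-06). Of the 2 other tested Rps6ka5 probe sets, 1 was also called lower. Without shRNA replicate 1, 2 of the 14 were lower. Of the JNK and p38 genes, 5 of 13 were higher and 3 lower, with the kinase genes Map3k1 and Map3k5 higher by 0.82 and 0.77 and Mapk14, which encodes p38 alpha, lower by 0.43. Of the 3 other tested Mapk14 probe sets, 1 was also called lower. SRF cofactors and cytoskeletal SRF targets were split, 6 of 22 higher and 6 lower. Their largest changes were in Tagln2, an actin-binding gene higher by 1.35, Filip1l, higher by 0.93, and Tagln, an actin-binding gene lower by 0.75. The list of YAP and TEAD targets, which also holds YAP, TEAD and partner genes themselves, was split as well, 6 of 18 higher and 6 lower. Crim1 was higher by 1.43, and Tead4, the gene of a TEAD factor, was lower by 0.85.

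Genes of cyclic AMP and CREB signalling were higher in 11 of 24 cases and lower in 5, beside 35.7% and 22.8% of all tested genes. Pde4b, a phosphodiesterase that breaks down cyclic AMP, averaged 11.23 ± 0.065 in shRNA arrays and 9.04 ± 0.080 in control arrays (SD, n = 3 each), a difference of 2.19 (limma adjusted p = 6.86e-11). Pde3b and the coactivator gene Ppargc1a were higher by 1.08 and 0.97. The list of other immediate-early and delayed-early genes had 23 of 39 higher and 6 lower, with a median difference of 0.25. Spry4, an inhibitor of receptor tyrosine kinase signalling, averaged 9.32 ± 0.11 in shRNA arrays and 7.69 ± 0.26 in control arrays (SD, n = 3 each; difference 1.63, limma adjusted p = 1.7e-07). Homer1, a scaffold gene of synapses and muscle, was lower by 1.17 (limma adjusted p = 1.7e-09). Of the 5 other tested Homer1 probe sets, 3 were also called lower.

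Of the AP-1 target genes, 9 of 13 tested were higher and the other 4 did not pass, with a median difference of 0.62. A further 5 AP-1 targets had a probe set but were below the filter. Of all tested genes, 35.7% were called higher and 22.8% lower. The protease gene Plau, the cyclin gene Ccnd1 and the adhesion receptor gene Cd44 were higher by 0.93, 0.87 and 0.84. NF-kappaB subunits and feedback genes were higher in 11 of 17 tested cases and lower in 2, and 6 more were below the filter. Ikbkb was higher by 0.59 and Ikbkg lower by 0.75, both of them kinase complex subunits. Glucocorticoid response genes were higher in 10 of 15 cases and lower in 2, with Cebpd higher by 1.15 and the ubiquitin ligase gene Trim63 lower by 1.35. Without shRNA replicate 1, control replicate 1 or control replicate 3, 1 of these 15 was lower. Among bZIP relatives 6 of 17 were higher and 3 lower, with Maf higher by 0.49 and Xbp1 lower by 0.50. Other KLF and SP factors had 2 of 10 higher and 4 lower, with Klf13 higher by 0.64 and Klf5 lower by 0.60. Without shRNA replicate 1 or 3 or control replicate 2, 1 of these 10 was higher. Of the 2 other tested Klf13 probe sets, 1 was also called higher.

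**Figure D5:**
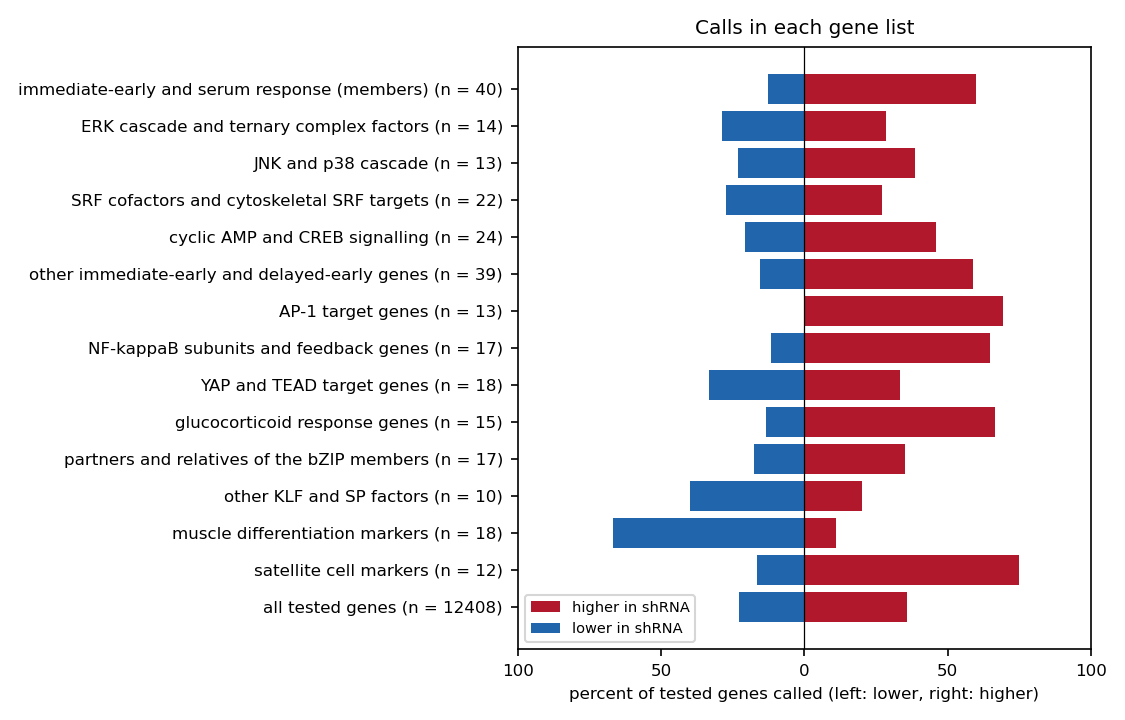
Percent of tested genes called higher (bars to the right) or lower (bars to the left) in LncMyoD shRNA against control arrays (limma, adjusted p under 0.05), for the 40 members, the 13 lists and all 12408 tested genes. AP-1 targets and satellite cell markers are mostly higher, and muscle differentiation markers mostly lower.

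The myoblast markers were bright in both groups. Myod1, the muscle determination factor, averaged 13.82 ± 0.064 in shRNA arrays and 13.80 ± 0.074 in control arrays, and desmin (Des) 13.26 ± 0.0065 in shRNA arrays and 13.22 ± 0.026 in control arrays (SD, n = 3 each). Myog, a gene of differentiating muscle cells, was also bright, with 14.00 ± 0.048 in shRNA arrays and 14.13 ± 0.060 in control arrays. Muscle differentiation markers were lower in 12 of 18 cases and higher in 2 (median difference -0.15), with the sarcomere gene Tcap lower by 1.96, the creatine kinase gene Ckm by 1.41 and myoglobin (Mb) by 0.80. The 1 other tested Mb probe set was not called lower. Satellite cell markers were higher in 9 of 12 cases and lower in 2 (median difference 0.49), with Sdc4, Pax3 and Cxcr4 higher by 0.95, 0.94 and 0.79. Among all tested genes, 35.7% were called higher and 22.8% lower. The satellite cell list moved in the same direction as most called members, and the differentiation list in the opposite one. The part of the state of differentiation in the members' differences was not tested.

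Markers of other cell types varied in brightness from list to list. Of the fibroblast markers 6 of 10 passed the filter, with Pdgfra higher by 0.89 and 4 lower, and their summed linear signal ran from 8478 to 8963 in shRNA arrays and from 8816 to 9624 in control arrays. Without control replicate 1 or 3, 2 fibroblast markers were lower. Of the leukocyte markers 7 of 10 passed, with Cd14 higher by 1.07 and Cd68 by 0.33, and a summed signal of 888 to 1006 in shRNA arrays and 880 to 949 in control arrays. The leukocyte markers below the filter were Ptprc, Itgam and Cd3e. The call of 1 of those 2 leukocyte markers was lost without any 1 of the 3 shRNA replicates or without control replicate 2 or 3. Of the pericyte and smooth muscle markers 6 of 8 passed, with Mcam higher by 0.72 and Notch3 by 0.41, and sums of 29941 to 31051 in shRNA arrays and 25307 to 27421 in control arrays. These sums include the bright gene Acta2, also in the list of SRF targets, which averaged 14.34 in shRNA arrays and 14.28 in control arrays. Only 1 of 9 endothelial, 2 of 4 Schwann cell and 0 of 4 adipocyte markers passed, and 0 of the 3 that passed were called by limma, also at an unadjusted p under 0.05. The part of these cells in the members' differences was not tested.

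Signs of RNA quality differed slightly. The log2 ratio of 3′ to 5′ signal was 0.55 ± 0.017 in shRNA arrays and 0.51 ± 0.018 in control arrays for actin, and 0.23 ± 0.038 in shRNA arrays and 0.14 ± 0.045 in control arrays for GAPDH (SD, n = 3 each). For each, the two-sided exact permutation p was 0.1, the smallest that 3 against 3 arrays can give. Its part in the members' differences was not tested. Arrays of 1 group correlated at 0.996 to 0.997 over the 27022 tested probe sets, and arrays of different groups at 0.976 to 0.981.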

How the data were processed

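The deposited table holds the authors' normalized log2 signals, 1 per probe set and array, for 45101 probe sets and 6 arrays. Per the submitters' processing notes, PLIER and MAS5 were named, without their roles; versions and background correction are not stated in those notes. Values between 4.48 and 14.6, with a median of 7.23 on the array of shRNA replicate 1, identify the scale as log2. An array has no read depth, so the 3 arrays per group limit the precision. The columns of values left without a sample numbered 0.

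Probe sets were named from GEO's platform annotation (34958 with 1 symbol, 932 with several, 9211 unnamed), and none from a probe set with several. The 64 control probe sets and then the 40% with the lowest mean over the 6 arrays (18015) were left out, a floor of 6.50. Differences, shRNA minus control, were tested with limma 3.58.1 in R 4.3.3 (lmFit, eBayes with a mean-variance trend, no covariates) and Benjamini-Hochberg adjustment over the 27022 remaining probe sets. Intervals printed are unadjusted. On simulated data for these 27022 probe sets, 59% of 100 changes of 0.5 and 93% of 100 changes of 1 were recovered. No other probe set was changed there. In the data 30.4% of tested probe sets were called higher and 23.5% lower, so these recovery rates need not hold.

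The members, the 13 pathway lists and the 6 marker lists were chosen with earlier results of these data known, and several lists share genes. The naming rule covered all members and up to 3 genes per pathway list with the largest differences past the threshold; Myod1, Des and Myog were named as a check of the cell type, after their values were seen. Same-numbered arrays did not deviate together (correlations of -0.13, -0.062 and 0.031), so replicate numbers were not used as pairs. Promoters are from RefSeq, GRCm38.p6. Alternatives covered the filter, the model, the scaling, the probe set per gene and each array left out.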

Additional observations from a re-analysis of the deposited data

How the results depend on the processing

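Over 17 alternative settings, 6 of them leaving out 1 array, the members called higher numbered 19 to 25, the lower end under a stricter filter that tested 34 members. Leaving out 1 array gave 22 to 25 higher and 4 to 5 lower, and a median difference of 0.26 to 0.33, the highest without control replicate 1. Members called lower numbered 8 with arrays centred on their median and 8 with quantile normalization, beside 29.6% and 25.9% of all tested genes, and the median difference was 0.21 with arrays centred; centring moved the median of all genes to -0.019. Of the 29 called members, 25 were called in every setting that tested them. The exceptions were Klf6, Cyr61, Crem and Egr3. With the probe sets of a gene averaged, Crem turned to -0.095 (limma adjusted p = 0.308) and Cyr61 to -0.053 (limma adjusted p = 0.370). Without probe sets ending in _x_at and _s_at, Srf was read by its dimmer probe set at -0.29 (limma adjusted p = 0.0131). Beyond the brightest probe set and all arrays, Fosl2, Klf9, Zfp36l1, Sgk1, Ier5, Egr2 and Srf were each called in at least 1 alternative. Of the 38 genes in the pathway lists that the naming rule gave, 37 were called in every setting that tested them. With a replicate block, 23 members were called higher and 4 lower; the numbers did not pair the arrays. The 3′ to 5′ log2 ratio differed by 0.033 to 0.053 for actin and by 0.061 to 0.107 for GAPDH when 1 array was left out. Signal over background could not be judged, because no detection calls were used here.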
